A study of Mus musculus with 18 samples.

Results

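Amino acids enter a cell through membrane proteins of the solute carrier (SLC) families, and 10 genes of such transporters were followed here in mouse macrophages exposed to different plasmas: Slc7a5, Slc3a2, Slc7a11, Slc7a1, Slc7a2, Slc38a2, Slc38a1, Slc1a5, Slc1a4 and Slc6a9. They were taken by gene symbol from the 24705 rows of the expression table that carry 1 symbol, and each of the 10 had exactly 1 row. The genes were named with differences between the plasma groups already known, foremost those that involve ApoE plasma. Their levels and their differences from the ApoE group are therefore a description and carry no p-value. The 3 comparisons without the ApoE group were tested, but their differences follow from those of the comparisons with the ApoE group, which were known. Their p-values therefore rest on values with which the genes were chosen, and give no independent support.

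Expression was measured on Affymetrix arrays as log2 values, so that 1 unit is a doubling. Macrophages were grown from femoral marrow with M-CSF at 30 ng/mL, and on day 4 fetal calf serum was exchanged for 10% plasma for 48 hours. All plasma donors were C57BL/6J mice that had eaten a Western diet for 8 weeks. They were wild type (WT, 4 arrays), ApoE-KO (ApoE, 5 arrays), ApoE-Stab1-KO (AS1, 3 arrays) or ApoE-Stab2-KO (AS2, 6 arrays), so that AS1 and AS2 donors lacked apolipoprotein E as well as stabilin-1 or stabilin-2, scavenger receptors that clear plasma ligands. The knockouts belong to the donors of the plasma. The labels state neither the genotype of the marrow, the age of the mice and the number of donors, nor any pooling of plasma or whether replicates were separate cultures. P-values therefore cover only how far the deposited arrays differ, and that spread may be a technical one.

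Some SLC7 proteins, among them the products of Slc7a5 and Slc7a11, are light chains: they carry the substrate but reach the plasma membrane only when bound to the heavy chain made by Slc3a2, also known as CD98. Slc7a5 exchanges intracellular glutamine for leucine and other large neutral amino acids, which activate the growth kinase mTORC1, and Slc7a11 imports cystine, the precursor of glutathione, in exchange for glutamate. When amino acids run short, the kinase GCN2 and the transcription factor ATF4 raise many transporter genes. In macrophages, arginine taken up through Slc7a1 and Slc7a2 feeds arginase and nitric oxide synthase.

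Of 10 macrophage markers 9 had a row, with mean log2 values from 7.23 (Aif1) to 12.67 (Cd68), whereas the median of all array values was 4.37. Csf1r and Adgre1, which define the cell type, had 12.42 and 12.31. The level of the list itself moved with the groups: its mean over the 9 genes ran from 11.19 to 11.20 over the WT arrays and 11.06 to 11.22 over AS1, but 10.70 to 10.87 over ApoE and 10.75 to 10.86 over AS2. In limma 6 of 9 were lower and 1 higher in ApoE against WT (differences from -1.42 to 0.24), and 6 of 9 were lower in AS2 against WT, down to -1.45. Among cells that should be absent, the T and NK cell markers lay between 3.79 and 4.19, and the stromal markers between 3.94 and 5.06. Of the B cell markers, Cd79a, Ms4a1 and Pax5 lay between 3.87 and 3.91, but Cd79b had a mean of 6.07 (5.11 to 7.61 over the arrays). The mean of the 4 B cell genes with a row was 4.70 to 5.09 over the AS1 arrays, 4.31 to 4.58 over WT, 4.27 to 4.48 over ApoE and 4.13 to 4.29 over AS2. The mean level of 14 proliferation genes ranged from 6.25 to 6.59 over the WT arrays, 7.75 to 8.00 over ApoE, 7.98 to 8.09 over AS1 and 8.70 to 8.91 over AS2. That of 10 neutrophil lineage genes ranged from 7.44 to 7.72, 7.40 to 8.45, 9.21 to 9.45 and 6.91 to 7.57 in the same order. The means of these genes over all arrays ran from 3.95 (Ly6g) to 10.88 (Ngp), with S100a8 at 9.69 and Mpo at 8.57. For 7 osteoclast genes the mean level ran from 5.86 to 5.98, 6.00 to 6.30, 6.27 to 6.45 and 6.79 to 7.23. The part of these lists in the results that follow was not tested, and in bulk RNA fewer cells of a type cannot be told apart from less RNA per cell. Within the ApoE group, replicate 2 correlated least with its own group (mean r = 0.9912 across genes, which are not independent replicates). Replicate 5 was the lowest ApoE array for 7 of the 10 transporter genes and replicate 2 for 2 of them.

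**Figure D1:**
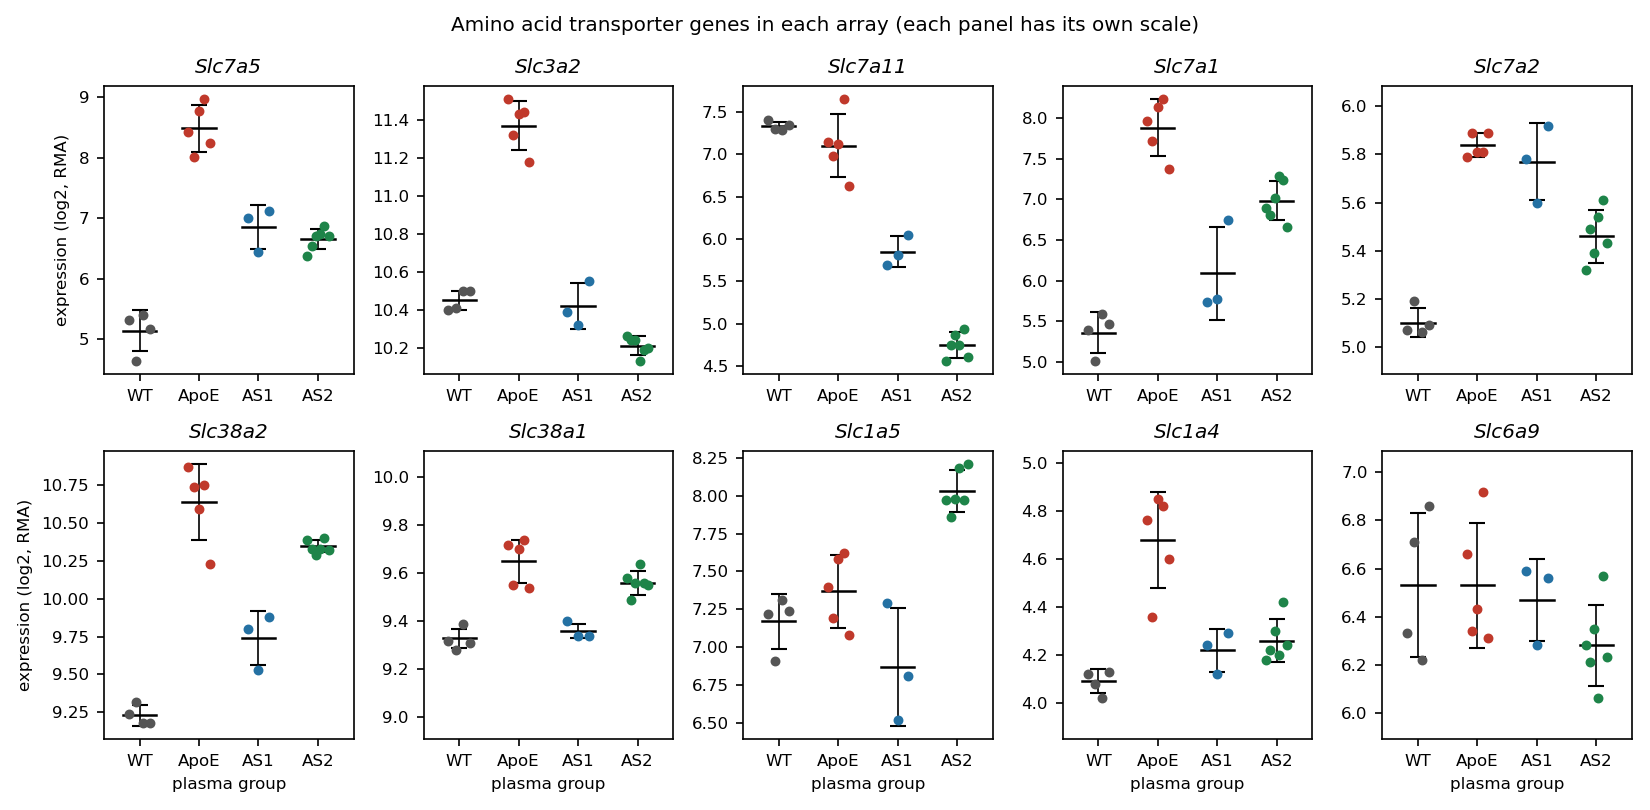
Expression of the 10 amino acid transporter genes (log2, RMA) in each array of the 4 plasma groups; points are arrays, lines are group means and bars are SD, and each panel has its own vertical scale. Slc7a5 is highest in the 5 ApoE arrays (8.01 to 8.97), Slc7a11 is lowest in the 6 AS2 arrays (4.56 to 4.94), and Slc1a5 is highest in AS2 (7.86 to 8.21).

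Slc7a5, the leucine transporter, had log2 values of 5.32, 4.64, 5.41 and 5.17 with WT plasma. With ApoE plasma it had 8.43, 8.01, 8.78, 8.97 and 8.24, and with AS1 plasma 7.0, 6.45 and 7.12. With AS2 plasma its values ran from 6.37 to 6.87 with a median of 6.71. Every ApoE array stood above every array of the other groups, every WT array stood below them, and AS1 and AS2 overlapped in between. The level was 8.49 ± 0.39 (SD, n = 5) in ApoE against 5.14 ± 0.34 (SD, n = 4) in WT, a 10.2-fold difference. AS1 and AS2 differed from ApoE by -1.63 ± 0.21 (SE) and -1.83 ± 0.17 log2 units. With AS1 and AS2 plasma Slc7a5 remained above WT by 1.72 ± 0.22 (SE) and 1.52 ± 0.19 log2 units (limma adjusted p = 4.20e-05 and 9.49e-06). AS2 differed from AS1 by -0.20, with a 95% interval from -0.63 to 0.23 (adjusted p = 0.604).

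Slc3a2, the heavy chain gene, had 10.40, 10.41, 10.50 and 10.50 with WT plasma and 11.51, 11.32, 11.43, 11.44 and 11.18 with ApoE plasma. AS1 arrays had 10.39, 10.32 and 10.55, and AS2 arrays ran from 10.13 to 10.26 with a median of 10.22. ApoE alone stood apart at the top, by 0.92 ± 0.06 (SE) log2 units or 1.90-fold over WT, and WT and AS1 overlapped. The difference from ApoE was -0.95 in AS1 and -1.17 in AS2. AS1 differed from WT by -0.03, with an interval from -0.18 to 0.12 (limma adjusted p = 0.877). With AS2 plasma Slc3a2 fell by 0.24 log2 units below WT (limma adjusted p = 0.00626). It was 0.21 lower than with AS1 plasma (adjusted p = 0.0236), but this call was lost without AS1 replicate 1 or AS1 replicate 3 (differences of -0.23 and -0.14, adjusted p = 0.0524 and 0.197) and in the fit with a replicate block (-0.18, adjusted p = 0.0794).

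Slc7a11, the cystine importer, was lower in AS1 and AS2 than in WT and ApoE. Its log2 values were 7.40, 7.30, 7.29 and 7.35 with WT plasma and 7.14, 6.98, 7.12, 7.65 and 6.62 with ApoE plasma, and these groups overlapped. With AS1 plasma it had 5.69, 5.81 and 6.05. With AS2 plasma it ran from 4.56 to 4.94 with a median of 4.75, and both AS1 and AS2 stood apart below all WT and ApoE arrays. From ApoE, Slc7a11 differed by -1.25 in AS1 and by -2.35 in AS2. Against WT, Slc7a11 fell by 1.48 log2 units with AS1 plasma and by 2.59 with AS2 plasma, which are 2.80-fold and 6.00-fold (SE 0.16 and 0.14, limma adjusted p = 8.04e-06 and 2.75e-10). AS2 was also below AS1, by 1.10 ± 0.15 (SE) log2 units (limma adjusted p = 2.84e-05), and every AS2 array lay below every AS1 array. The order of Slc7a11 was thus AS2, AS1, ApoE and WT from low to high, and only ApoE and WT overlapped. ApoE differed from WT by -0.23; the difference was -0.37 without ApoE replicate 4 and -0.03 without ApoE replicates 2 and 5. Among genes of the antioxidant factor NRF2, which also controls Slc7a11, the glutathione synthesis genes Gclm and Gclc differed from WT by -1.54 and -1.07 with AS2 plasma and by -1.08 and -1.15 with AS1 plasma (limma adjusted p between 1.72e-12 and 3.01e-08). Both were also below WT with ApoE plasma, at -0.95 and -0.60 (adjusted p = 3.30e-09 and 4.72e-06). Gclm was lower in AS2 than in AS1 (-0.45, adjusted p = 1.77e-05), and Gclc did not differ past the threshold (0.08, adjusted p = 0.516). Whether NRF2 had a part in the level of Slc7a11 was not tested.

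The 2 light chains moved apart relative to Slc3a2 within the same arrays. The array-wise difference Slc7a5 minus Slc3a2, set to 0 at the WT mean, was 2.43 ± 0.34 (SD, n = 5) in ApoE, 1.75 ± 0.26 (SD, n = 3) in AS1 and 1.76 ± 0.21 (SD, n = 6) in AS2. The difference Slc7a11 minus Slc3a2 was -1.15 ± 0.29, -1.45 ± 0.11 and -2.34 ± 0.16 log2 units in the same groups. These values show unequal change of the genes, not the amount of either chain.

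Promoter windows of the RefSeq table (build GRCm38.p6, 250 bases before to 50 after a start) were searched for TGATGNAA, the core of the C/EBP-ATF response element to which ATF4 binds, on both strands. Of the 10 genes, 6 had an entry, with 9 windows, and 2 of these windows held a match: those of Slc7a11 and Slc1a4. Of all 32851 windows, 3.97% held one. Slc7a5, Slc7a2, Slc1a5 and Slc38a1 had no entry. The Slc7a11 sequence is shown because this gene had the widest span between AS2 and WT and its window carries 2 matches, and the Slc1a4 sequence because it is the only other window with a match. Both are printed in the direction of the gene with the matches in capitals. The Slc7a11 sequence covers chr3:50443614-50443863 on the minus strand, bases -250 to -1, and its matches lie at -66 to -59 and, on the opposite strand, at -47 to -40. The Slc1a4 sequence covers chr11:20332704-20332963 on the minus strand, bases -250 to 10, and its match spans the start, from -4 to 4.
Slc7a11: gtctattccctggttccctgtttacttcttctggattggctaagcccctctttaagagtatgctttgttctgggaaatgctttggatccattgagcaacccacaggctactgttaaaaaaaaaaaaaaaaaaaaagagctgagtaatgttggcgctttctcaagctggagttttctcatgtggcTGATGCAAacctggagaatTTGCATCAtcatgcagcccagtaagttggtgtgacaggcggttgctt
Slc1a4: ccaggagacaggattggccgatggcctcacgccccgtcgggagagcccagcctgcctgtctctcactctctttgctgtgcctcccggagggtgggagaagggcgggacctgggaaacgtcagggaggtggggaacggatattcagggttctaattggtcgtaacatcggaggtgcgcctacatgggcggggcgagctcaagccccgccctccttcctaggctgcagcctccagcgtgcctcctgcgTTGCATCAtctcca
The antioxidant response element was searched as TGACNNNGC on both strands, and 12.4% of all windows held it. It was found in 1 of 2 windows of Slc7a1, 1 of 1 of Slc38a2 and 2 of 3 of Slc6a9. The windows of Slc7a11, Slc3a2 and Slc1a4 held none. A match describes letters in this window and is not evidence of binding.

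Slc7a1, the main carrier of arginine and lysine, had log2 values of 5.39, 5.01, 5.59 and 5.47 with WT plasma and 7.96, 7.71, 8.13, 8.23 and 7.37 with ApoE plasma. AS1 arrays had 5.74, 5.77 and 6.75, so replicate 3 stood above the others of its group. AS2 arrays ran from 6.66 to 7.28 with a median of 6.95. ApoE was highest and WT lowest, each apart from all other groups, and AS1 overlapped AS2 through its replicate 3. Over WT, Slc7a1 was 2.52 ± 0.21 (SE) log2 units or 5.72-fold higher in ApoE, from which AS1 and AS2 differed by -1.79 and -0.90. It rose over WT by 1.61 ± 0.20 in AS2 (limma adjusted p = 1.20e-05). The AS1 difference from WT was 0.73 ± 0.24 and did not pass (limma adjusted p = 0.0692, from 0.0215 to 0.402 over the alternatives); it was 0.40 without AS1 replicate 3. It passed in 4 alternatives: with a replicate block (0.79, adjusted p = 0.0215), when rows with low means were dropped, without ApoE replicate 5, and without ApoE replicates 2 and 5 (0.73 each, adjusted p = 0.0338, 0.0477 and 0.041). AS2 exceeded AS1 by 0.89 ± 0.22 (limma adjusted p = 0.00627), a call lost without AS1 replicate 1 or AS1 replicate 2 (0.72 and 0.73, adjusted p = 0.0592 and 0.0503).

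Slc7a2, a second arginine carrier known for its induction in activated macrophages, was above WT with every other plasma. It had 5.07, 5.19, 5.06 and 5.09 with WT plasma, 5.79, 5.89, 5.81, 5.81 and 5.89 with ApoE plasma, and 5.78, 5.60 and 5.92 with AS1 plasma. AS2 arrays ran from 5.32 to 5.61 with a median of 5.46. All WT arrays lay below all others, and AS1 overlapped both ApoE and AS2. Slc7a2 exceeded WT by 0.66 ± 0.07 (SE) log2 units in AS1 and by 0.36 ± 0.06 in AS2 (limma adjusted p = 6.80e-06 and 0.000249), and AS2 differed from AS1 by -0.30 ± 0.07 (adjusted p = 0.00248). From ApoE it differed by -0.37 ± 0.06 in AS2 and by -0.07 ± 0.07 in AS1. Arg2, an arginase gene, was likewise lower in AS2 than in AS1 (-1.30, limma adjusted p = 4.76e-07), but unlike Slc7a2 it lay below WT in AS2 (-0.40, adjusted p = 0.0156).

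**Figure D2:**
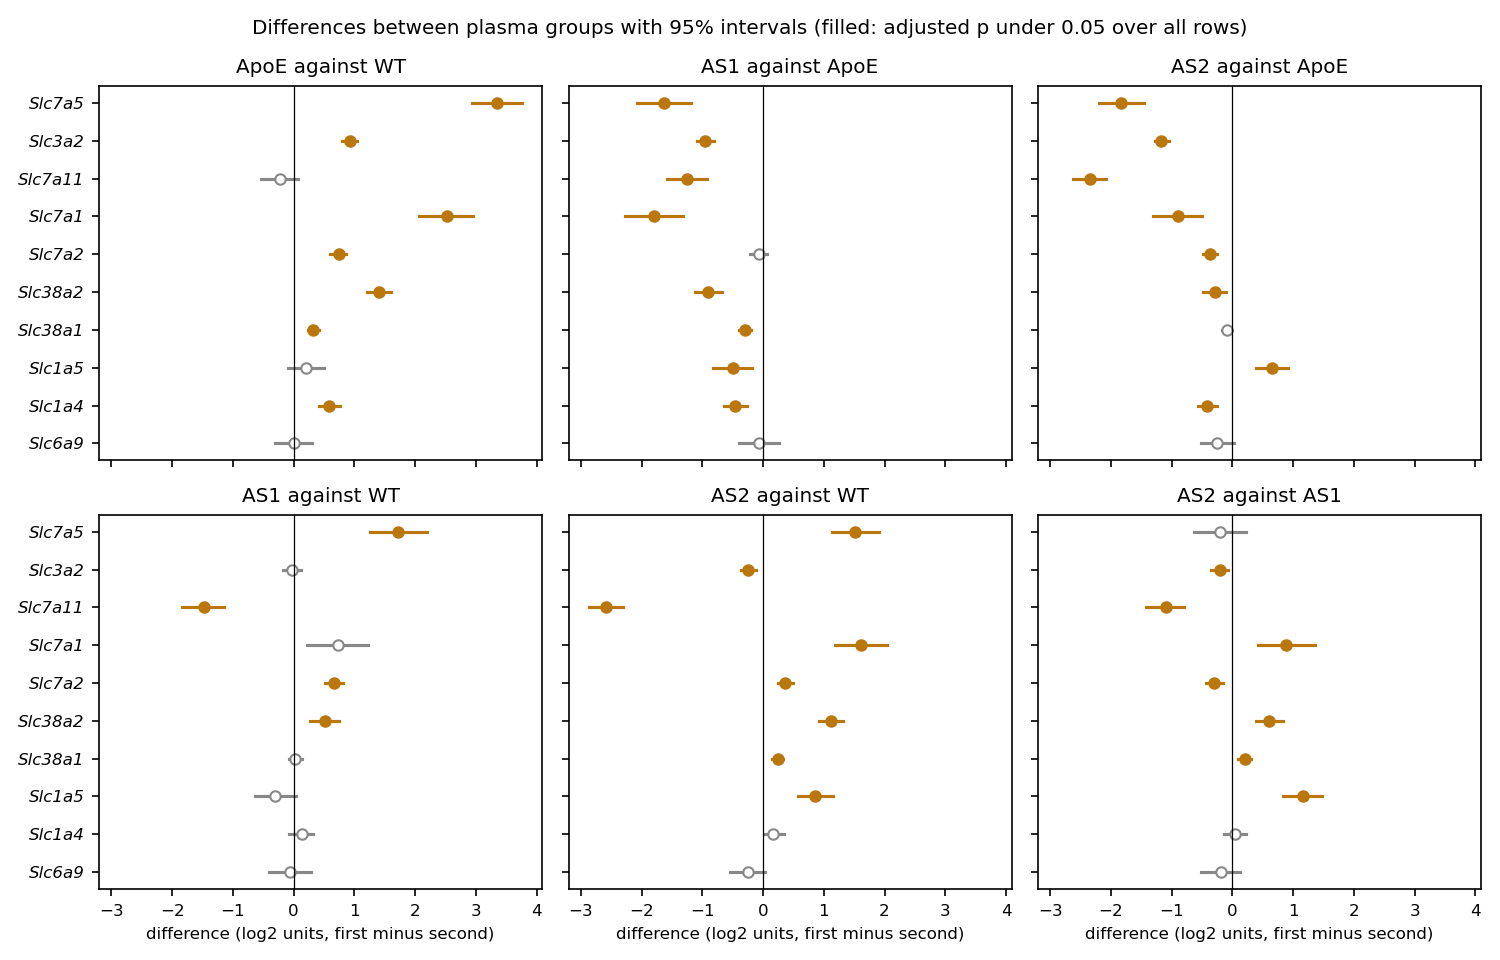
Differences between plasma groups for the 10 genes, in log2 units as first group minus second, with 95% intervals; filled points passed adjusted p under 0.05 over 24705 rows, and in the top row the genes were chosen with the result known. Slc7a11 lies at -2.59 in AS2 against WT, where Slc7a1 lies at 1.61, and Slc6a9 crosses 0 in all panels.

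Slc38a2 and Slc38a1 encode sodium-coupled importers of small neutral amino acids such as glutamine and alanine. Slc38a2 had 9.24, 9.32, 9.18 and 9.18 with WT plasma and 10.87, 10.74, 10.59, 10.75 and 10.23 with ApoE plasma. AS1 arrays had 9.80, 9.53 and 9.88, and AS2 arrays ran from 10.29 to 10.40 with a median of 10.33. The order was WT, AS1, AS2 and ApoE, with only AS2 and ApoE overlapping, through ApoE replicate 5. Slc38a2 rose over WT by 0.51 ± 0.11 (SE) log2 units in AS1 and by 1.12 ± 0.09 in AS2 (limma adjusted p = 0.00632 and 1.09e-07). It was 0.61 ± 0.10 higher in AS2 than in AS1 (adjusted p = 0.000264). From ApoE, AS1 differed by -0.90 ± 0.11 and AS2 by -0.29 ± 0.09.

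Slc38a1 showed the same order on a smaller scale. Its values ran from 9.28 to 9.39 with WT plasma, 9.54 to 9.74 with ApoE, 9.34 to 9.40 with AS1 and 9.49 to 9.64 with AS2, and its group means spanned 0.32 log2 units. From ApoE it differed by -0.29 in AS1 and by -0.09 in AS2; the latter was -0.15 without ApoE replicates 2 and 5. Slc38a1 rose by 0.24 ± 0.04 (SE) in AS2 over WT and by 0.21 ± 0.05 in AS2 over AS1 (limma adjusted p = 0.000721 and 0.0041). The WT and AS1 arrays overlapped, with a difference of 0.03 and an interval from -0.08 to 0.14 (adjusted p = 0.829).

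Slc1a5 and Slc1a4 encode sodium-dependent exchangers of the ASC type, which carry alanine, serine and cysteine, and in the case of Slc1a5 also glutamine. Slc1a5 was the only one of the 10 genes that was highest with AS2 plasma. It had 7.22, 6.91, 7.31 and 7.24 with WT plasma, 7.40, 7.19, 7.58, 7.62 and 7.08 with ApoE plasma, and 7.29, 6.52 and 6.81 with AS1 plasma. AS2 arrays ran from 7.86 to 8.21 with a median of 7.98, above all others, while WT, ApoE and AS1 overlapped. Slc1a5 rose over WT by 0.86 ± 0.14 (SE) log2 units in AS2 and over AS1 by 1.16 ± 0.15 (limma adjusted p = 0.00014 and 1.50e-05). AS1 differed from WT by -0.30, with an interval from -0.63 to 0.04 (adjusted p = 0.331). From ApoE, AS2 differed by 0.65 ± 0.13 and AS1 by -0.50 ± 0.15; without AS1 replicate 2 the latter was -0.32.

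Slc1a4 lay near the median of all array values, 4.37. Its values ran from 4.02 to 4.13 with WT plasma, 4.36 to 4.85 with ApoE, 4.12 to 4.29 with AS1 and 4.18 to 4.42 with AS2. ApoE exceeded WT by 0.59 ± 0.08 (SE) log2 units, and by 0.72 without ApoE replicates 2 and 5, while AS1 and AS2 differed from ApoE by -0.46 and -0.42. None of the 3 tested comparisons of Slc1a4 passed (limma adjusted p from 0.163 to 0.812), but AS2 against WT, at 0.17, passed in 3 of 27 alternatives: these groups alone, without ApoE replicate 2, and without ApoE replicates 2 and 5 (adjusted p = 0.0315, 0.0378 and 0.02). Slc6a9, which encodes a glycine transporter, ran from 6.22 to 6.86, 6.31 to 6.92, 6.28 to 6.59 and 6.06 to 6.57 in WT, ApoE, AS1 and AS2, and all groups overlapped. In limma it passed in 0 of the 3 tested comparisons, and in 0 at an unadjusted p under 0.05, since these 95% intervals included 0. Its intervals against WT ran from -0.40 to 0.29 in AS1 and from -0.54 to 0.04 in AS2 (limma adjusted p = 0.908 and 0.289).

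In the tested comparisons, 4 of the 10 genes passed in AS1 against WT (3 higher, 1 lower), where 9.48% of all rows passed (4.84% higher, 4.64% lower). In AS2 against WT 8 passed (6 higher, 2 lower), against 17.8% of all rows (8.65% higher, 9.2% lower). In AS2 against AS1 7 passed (4 higher, 3 lower), against 22.1% (11.5% higher, 10.6% lower). In the comparisons with which the genes were chosen, 7 passed in ApoE against WT, all higher (16.9% of all rows, 8.54% higher and 8.36% lower). Likewise 8 passed in AS1 against ApoE, all lower (16.5%, 7.74% higher and 8.8% lower), and 8 in AS2 against ApoE, 7 lower and 1 higher (15.6%, 7.59% higher and 8.02% lower). Nothing is read from these 6 counts, because the genes were chosen with differences between these same arrays known. Comparisons that share a group are also not independent of each other. The median difference of the 10 genes was 0.08, 0.30 and -0.07 log2 units in AS1 against WT, AS2 against WT and AS2 against AS1, while the median over all rows lay at 0.01 or less from 0. In AS2 against AS1 the genes moved in opposite directions: Slc1a5, Slc7a1, Slc38a2 and Slc38a1 were higher, and Slc7a11, Slc7a2 and Slc3a2 lower. Marker lists moved with this comparison too: 10 of 10 neutrophil lineage genes, 6 of 9 macrophage markers (down to -1.17) and 3 of 4 B cell markers (down to -1.80) were lower in AS2, 13 of 14 proliferation genes were higher, and of 7 osteoclast genes 4 were higher and 1 lower (-2.53 to 2.22). Their part in it was not tested.

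The other light chains of Slc3a2 were set beside Slc7a5 and Slc7a11 as a group defined by that partnership, chosen after their values were seen. Slc7a7, which with Slc3a2 exports cationic amino acids, differed by -0.79 log2 units in AS2 against WT and by -0.88 in AS2 against AS1 (limma adjusted p = 1.29e-05 and 1.12e-05), and was 8.58 in AS1 against 8.50 in WT (adjusted p = 0.788). Slc7a8, a carrier of neutral amino acids, fell against WT by 0.48, 0.59 and 0.78 in ApoE, AS1 and AS2 (adjusted p = 0.00417, 0.00435 and 2.63e-05). Slc7a6 rose by 0.32 in AS2 against WT (adjusted p = 0.00608), and Slc7a10 passed in none of the comparisons, at a mean of 4.70 in WT and 4.66 in AS2. Of the light chains measured, Slc7a5 alone was above WT with all 3 other plasmas.

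**Figure D3:**
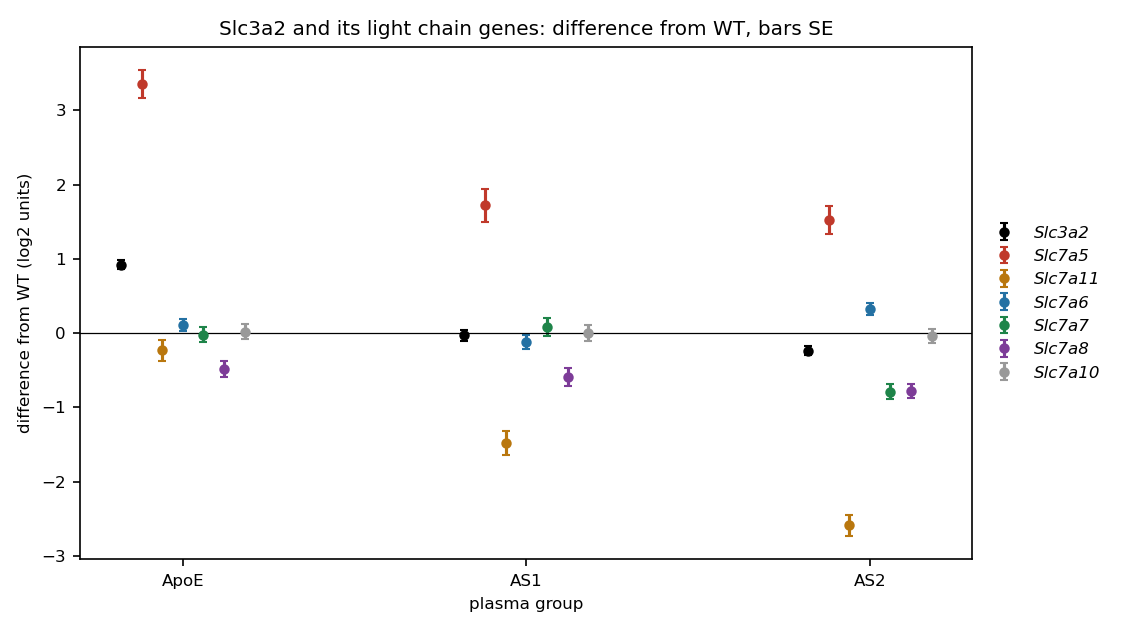
Difference from WT in log2 units for Slc3a2 and 6 light chain genes in the ApoE, AS1 and AS2 groups; points are limma estimates and bars are SE, and all points share the WT arrays. Slc7a5 lies at 3.35, 1.72 and 1.52 and Slc7a11 at -0.23, -1.48 and -2.59, while Slc3a2 lies at 0.92, -0.03 and -0.24.

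A further 44 amino acid transporter genes, listed by family and not by how they moved, all had a row. In AS1 against WT 3 of them passed (6.82%, against 9.48% of all rows): Slc1a3, a glutamate importer, was higher by 0.56 log2 units, and Slc7a8 and Slc16a10 were lower by 0.59 and 0.56. In AS2 against WT 11 passed (25% against 17.8%), 5 higher and 6 lower, and in AS2 against AS1 10 passed (22.7% against 22.1%), 4 higher and 6 lower. In ApoE against WT 8 passed, 4 in each direction (18.2% against 16.9%); 7 passed in AS1 against ApoE and 10 in AS2 against ApoE (15.9% and 22.7%, against 16.5% and 15.6%). Of the 44 genes, 16 passed in at least 1 of the 6 comparisons, or 36.4% against 35.1% of all rows. None of them reached 1 log2 unit in a comparison that it passed, and their median differences lay between -0.04 and 0.04. Only 25 of the 44 had a row mean above the 40th percentile of all row means. Many of the 44 lay near or below the median of all array values, 4.37, where a change may not be seen. The shares and medians of the 44 therefore depend in part on genes of low signal.

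Among these genes some are named here after their values were seen. Slc38a7, a lysosomal glutamine exporter, was higher in ApoE than in WT by 0.82 log2 units and lower in AS2 than in ApoE by 0.98 (limma adjusted p = 1.91e-06 and 7.13e-08). Slc16a10, a carrier of aromatic amino acids, had 10.87 in WT against 10.13 in ApoE, 10.31 in AS1 and 10.60 in AS2, and was below WT in all 3 groups (adjusted p from 1.13e-08 to 0.00046). Slc36a1 and Slc43a2 were lower in AS2 than in WT by 0.67 and 0.58, and Slc1a3 was lower in AS2 than in AS1 by 0.93 (adjusted p = 6.90e-06, 8.21e-07 and 2.69e-06). Slc6a6, the taurine transporter, was higher in AS2 than in WT by 0.31 (adjusted p = 0.000115).

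**Figure D4:**
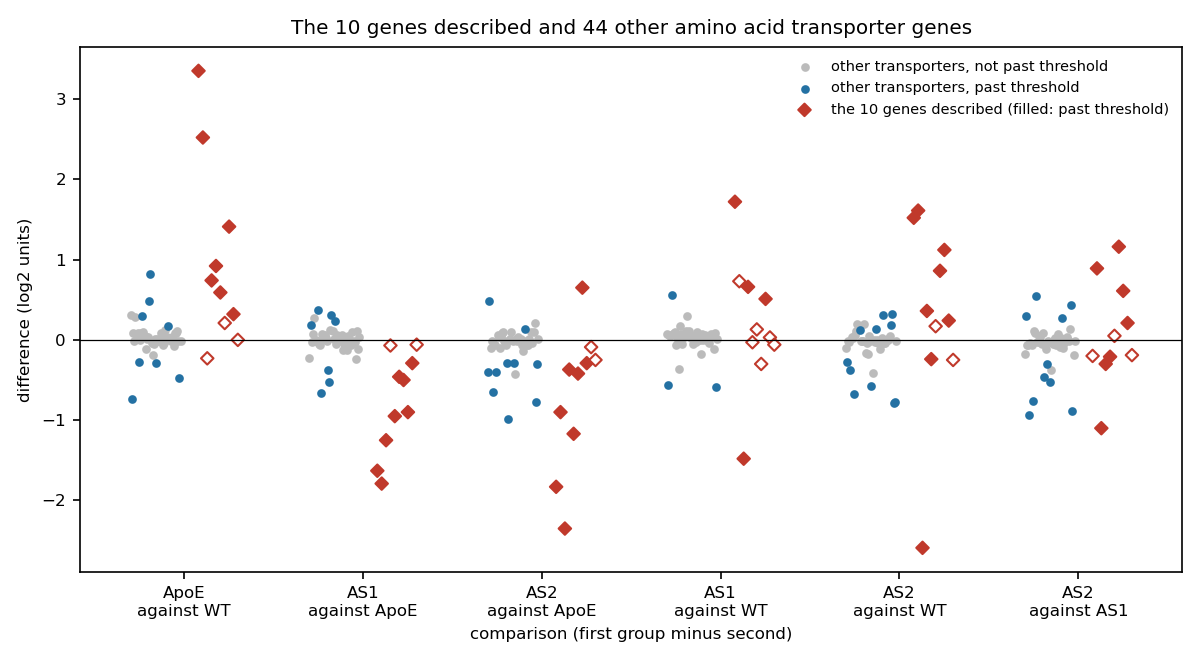
Differences in log2 units in the 6 comparisons for 44 other amino acid transporter genes (circles, blue where past the threshold) and the 10 genes described here (diamonds, filled where past it). The other transporters lie between -0.98 and 0.82 and the 10 genes, which were chosen with such differences known, between -2.59 and 3.35.

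Genes of the GCN2-ATF4 response were looked at for context. Atf4 had 7.61 in WT, 9.09 in ApoE, 8.13 in AS1 and 8.21 in AS2, and rose over WT by 0.52 ± 0.11 (SE) in AS1 and 0.59 ± 0.09 in AS2 (limma adjusted p = 0.00477 and 0.000129), with AS2 against AS1 at 0.08 (adjusted p = 0.716). Eif2ak4, which encodes GCN2, was higher in ApoE than in WT by 0.32 (adjusted p = 0.0199) and did not pass in AS1 or AS2 against WT (adjusted p = 0.876 and 0.966). Of the 20 genes of this list, 14 rose and 1 fell in ApoE against WT (75%, against 16.9% of all rows), and 3 rose in AS1 against WT (15.0%, against 9.48% of all rows). In AS2 against WT 4 rose and 3 fell (35.0% against 17.8%), with asparagine synthetase, Asns, at 2.35 and the leucine sensor Sesn2 at -1.13 (adjusted p = 3.65e-08 and 1.37e-07). Ddit3, Chac1 and Trib3, stress genes downstream of ATF4, passed in ApoE against WT (1.86, 1.38 and 1.32, adjusted p = 1.08e-08, 1.87e-05 and 1.06e-05) but not in AS1 or AS2 against WT (adjusted p from 0.144 to 0.591). Nupr1, another such gene, rose over WT by 1.93 in ApoE and by 0.69 in AS2 (adjusted p = 1.84e-06 and 0.0171). Asns was, like Slc7a1 and Slc38a2, higher in AS2 than in AS1 (0.85, adjusted p = 0.00419). Many of these genes were known from earlier results to move with ApoE plasma. Their counts and their p-values are therefore a description and do not support those of the transporters.

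The genes nearest to each transporter, outside the 10, were found by the root mean square difference of centred log2 values over the 18 arrays, for the 6 transporters whose group means spanned at least 1 log2 unit. Nearest to Slc7a5 were Mthfd2 (0.44), Asns (0.45) and Lrp12 (0.56), and nearest to Slc7a1 were Aldh18a1 (0.25), Anpep (0.38) and Hyal1 (0.39). Nearest to Slc38a2 were Il7r (0.09) and the tRNA synthetase genes Iars (0.12) and Yars (0.14). Slc3a2 had Impact, which encodes an inhibitor of GCN2, and Sec24d at 0.12 each and Plxna1 at 0.13. Slc1a5 had Adam8 (0.19), Selenoi and Mmp19 (0.20 each), and Slc7a11 had the lectin genes Clec4e (0.43) and Clec4n (0.51) and the chemokine gene Pf4 (0.50). Slc38a2 and Slc3a2 thus had closer neighbours than Slc7a5 and Slc7a11. The measure grows with the size of a gene's changes, and all genes share the same arrays.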

How the data were processed

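The authors deposited log2 values made with RMA, per the submitters' processing notes. Its version and the genome build, not given in the sources used here, could affect levels. The table held 25428 rows for 18 arrays, of which 24705 carried 1 gene symbol in the platform annotation and were tested; 723 were unnamed. Sorted values were the same on all arrays except ApoE replicate 1, which differed by at most 0.0019 and held 24162 distinct values against 7087. A change of total RNA cannot be seen in such values. Precision is limited by the number of arrays.

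Limma 3.58.1 in R 4.3.3 fitted 1 model with 4 group means (14 residual degrees of freedom), two-sided, with Benjamini-Hochberg adjustment over all tested rows and a threshold of 0.05; the fit was tested on simulated data. The transporter genes, lists and rules were chosen with earlier results of these data known. P-values of genes in the pathway lists are therefore a description as well. The naming rule took all 10 genes; from each pathway list, at most 6 genes per comparison past the threshold with at least 1 log2 unit, plus Atf4 and Eif2ak4; and the 3 nearest rows outside the 10 genes per transporter whose group means spanned 1 unit. List genes outside this rule are named as chosen later. Alternatives were: rows above the 40th percentile of row means; all rows; quantile normalization repeated or arrays centred on medians; a trended, robust prior variance; weighted arrays; fits of just the groups compared; a replicate block; and fits without each array or without ApoE replicates 2 and 5.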

Additional observations from a re-analysis of the deposited data

How the results depend on the processing

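Each of the 10 transporter genes was in every fit, and over 27 alternatives 0 of 1620 recomputed differences reversed sign where the gene had passed. Many could not move: changing the rows, the prior variance or arrays outside the compared groups leaves a difference of group means as it was. In the 3 tested comparisons, 4 of 30 pairs of gene and comparison changed their side of the threshold in at least 1 alternative. Over all 6 comparisons 8 of 60 pairs did. Most often lost were the calls of Slc38a2 in AS2 against ApoE, in 9 alternatives, and of Slc1a5 in AS1 against ApoE, in 6. When 1 array was left out, the number of transporter genes past the threshold ranged from 7 to 8 in the 3 comparisons that involve the ApoE group, from 4 to 5 in AS1 against WT, 8 to 9 in AS2 against WT and 5 to 7 in AS2 against AS1. For the 44 other transporters, leaving out 1 array gave 5 to 8 in ApoE against WT, with the 5 reached without WT replicate 3; 3 passed in AS1 against ApoE when these groups were fitted alone, and 5 in AS1 against WT with rows of low mean left out or without ApoE replicates 2 and 5. For the mTORC1 sensing list in AS1 against WT, 5 passed with rows of low mean left out and 5 with array weights, and 1 to 6 when 1 array was left out (1 without AS1 replicate 3, 6 without AS1 replicate 2, 5 without ApoE replicate 1). Causes were not tested. No pairing of arrays by replicate number was seen: deviations of 22 same-numbered pairs correlated from -0.207 to 0.133, 4 of them above 0.1. Of 18 arrays, 1 correlated best with its own number, and AS2 replicate 6 had no same-numbered array. Whether arrays with the same number shared marrow, plasma or a batch cannot be told from these correlations. With the replicate block, 7, 8, 7, 5, 8 and 6 transporter genes passed in the 6 comparisons in the order of the plot of differences, and calls over all rows fell to between 0.807 and 0.944 of their number. With 3 AS1 arrays, a difference from AS1 rests on few values.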

Other observations

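Enzymes that use the transported amino acids were examined as a list of 36 genes, of which 31 had a row. In ApoE against WT 7 were higher and 5 lower (38.7%, against 16.9% of all rows). In AS2 against WT 9 were higher and 6 lower (48.4%, against 17.8% of all rows), and in AS1 against WT 5 were higher and 3 lower (25.8%, against 9.48%). Aldh18a1, the first enzyme of proline synthesis and the nearest gene to Slc7a1, had 4.79 in WT, 6.93 in ApoE, 5.51 in AS1 and 6.32 in AS2, and was higher in AS2 than in AS1 by 0.81 ± 0.14 (SE) log2 units (limma adjusted p = 0.000263). The serine and folate enzymes Psat1 and Shmt2 were higher in AS2 than in WT by 1.39 and 1.15 (adjusted p = 6.04e-06 and 1.84e-06). They were also higher in ApoE than in WT, by 1.39 and 1.32 (adjusted p = 1.13e-05 and 7.83e-07). Between AS2 and ApoE neither differed past the threshold (0.00 and -0.17, adjusted p = 0.999 and 0.447). Got1, an aspartate aminotransferase, was lower in AS2 than in AS1 by 0.72 (adjusted p = 9.40e-06).

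Of 34 genes of amino acid sensing by mTORC1, 33 had a row. In ApoE against WT 9 were higher and 8 lower (51.5%, against 16.9% of all rows). In AS2 against WT 4 were higher and 7 lower (33.3%, against 17.8% of all rows), and 3 passed in AS1 against WT (9.09% against 9.48%). The sestrin genes Sesn1 and Sesn3, sensors that restrain mTORC1, were lower in AS2 than in WT by 0.63 and 1.02 log2 units (limma adjusted p = 2.57e-05 and 0.000177). Both were also lower in ApoE than in WT, at -1.05 and -0.63 (adjusted p = 1.54e-07 and 0.0142). AS2 differed from ApoE by 0.42 for Sesn1 (adjusted p = 0.000851) and by -0.39 for Sesn3, which did not pass (adjusted p = 0.113). Rragd, a GTPase that recruits mTORC1 to lysosomes, had 6.09 in ApoE and between 4.56 and 4.74 in the other groups, and did not pass in AS1 or AS2 against WT (adjusted p = 0.748 and 0.56). Fnip2, a partner of folliculin, was above WT in ApoE, AS1 and AS2 by 1.07, 0.46 and 0.63 (adjusted p = 5.90e-09, 0.000545 and 1.10e-06). The leucyl-tRNA synthetase gene Lars was higher in AS2 than in AS1 by 0.53 (adjusted p = 0.000516), and its AS1 and WT levels, 7.58 and 7.48, did not differ past the threshold (adjusted p = 0.697).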
